A study of Mus musculus with 20 samples.

Results

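Cell cycle and DNA replication genes were followed in pooled RNA of 5 tissues from mice on 4 diets. The set holds 49 genes, named by symbol, of the 21154 genes that the array's accessions gave a symbol. They cover the loading and firing of replication origins, DNA and nucleotide synthesis, regulators of G1 and S phase, entry into mitosis, the spindle checkpoint, mitotic kinases, the spindle and kinetochore, and the proliferation markers Mki67 and Top2a. Of these genes, 38 had 1 probe on the array and 11 had several, and the brightest probe stood for the gene. The probes of 40 genes were well above background on all 20 arrays and those of 8 genes on some of them. The probe of Ccne2, a cyclin E, was well above background on 0 arrays, so Ccne2 had no measured level in any comparison.

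Male C57BL/6J mice, 5 weeks old at the start, were fed for 13 weeks. The control diet (CD) had 10% of its energy as fat and the high fat diet (HFD) 60%. In the other groups HFD was supplemented, at 2% w/w, with porphyran, a sulphated polysaccharide of the red alga nori (HFD+PP), or with nori extract (HFD+Ex). Tissue of the 7 mice of a group was pooled, and liver, mesenteric white fat (labelled Mwat), brown fat (Bat), ileum and colon each gave 1 array per diet. A comparison of diets within a tissue therefore set 1 array against 1 array, with no replicate and no test. The labels name no engineered allele.

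Replication starts at origins that were licensed in G1, when Cdc6 and Cdt1 load the Mcm2 to Mcm7 helicase and geminin (Gmnn) later blocks reloading. E2F factors drive transcription of the replication genes at the G1 to S boundary. The DREAM and MuvB complexes with Mybl2 and Foxm1 control the mitotic genes through CHR elements. Liver and fat of adult mice hold few dividing cells, whereas the crypt epithelium of ileum and colon divides throughout life. These statements are background and not results of the arrays.

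The start regions of genes with large differences are shown because the genes of the set moved together on several arrays. RefSeq start regions of assembly GRCm38.p6, from 250 bases before to 50 after the gene's start, were matched by symbol for 36 of the 49 genes. Each of the following is written 5′ to 3′ on the strand of the gene, and capitals mark matches to the motifs searched. They lie at chr8:75109259-75109558 on the plus strand (Mcm5), and on the minus strand at chr10:69352863-69353162 (Cdk1), chr9:70421505-70421804 (Ccnb2), chr7:135716330-135716629 (Mki67) and chr11:99024140-99024439 (Top2a).
Mcm5: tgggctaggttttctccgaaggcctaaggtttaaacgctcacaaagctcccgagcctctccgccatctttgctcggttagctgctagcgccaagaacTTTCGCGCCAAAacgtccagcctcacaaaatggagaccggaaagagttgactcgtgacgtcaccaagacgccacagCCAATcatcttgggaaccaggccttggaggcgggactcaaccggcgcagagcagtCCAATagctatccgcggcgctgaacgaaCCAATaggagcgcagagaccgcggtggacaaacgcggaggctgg
Cdk1: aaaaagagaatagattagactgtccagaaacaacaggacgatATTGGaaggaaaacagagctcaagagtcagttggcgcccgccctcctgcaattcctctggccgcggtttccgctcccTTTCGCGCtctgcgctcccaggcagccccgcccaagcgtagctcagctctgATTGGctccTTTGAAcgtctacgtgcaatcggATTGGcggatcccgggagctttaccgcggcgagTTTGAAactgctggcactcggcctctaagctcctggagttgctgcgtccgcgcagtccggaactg
Ccnb2: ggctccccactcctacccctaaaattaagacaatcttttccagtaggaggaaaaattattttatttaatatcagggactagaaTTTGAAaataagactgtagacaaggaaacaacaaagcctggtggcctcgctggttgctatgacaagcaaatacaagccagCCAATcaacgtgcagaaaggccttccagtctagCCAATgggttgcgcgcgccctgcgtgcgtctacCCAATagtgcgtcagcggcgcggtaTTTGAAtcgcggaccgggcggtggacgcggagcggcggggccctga
Mki67: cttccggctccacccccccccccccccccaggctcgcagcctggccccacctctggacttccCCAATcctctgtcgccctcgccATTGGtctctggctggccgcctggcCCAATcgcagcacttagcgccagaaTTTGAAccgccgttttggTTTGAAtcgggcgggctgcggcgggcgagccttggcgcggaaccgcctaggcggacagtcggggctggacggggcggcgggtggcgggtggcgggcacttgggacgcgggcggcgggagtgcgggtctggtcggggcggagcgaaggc
Top2a: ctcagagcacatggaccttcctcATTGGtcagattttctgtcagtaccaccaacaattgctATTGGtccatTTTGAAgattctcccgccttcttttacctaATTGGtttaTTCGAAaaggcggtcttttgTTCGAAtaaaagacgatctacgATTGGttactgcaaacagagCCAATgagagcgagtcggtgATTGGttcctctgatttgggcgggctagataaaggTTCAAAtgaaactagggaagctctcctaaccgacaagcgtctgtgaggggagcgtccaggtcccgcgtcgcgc

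The E2F motifs searched were TTTCCCGC, TTTCGCGC, TTTGCCGC and TTTGGCGC, the CHR motifs TTTGAA and TTCGAA, and the CCAAT box CCAAT, all on both strands. The start region of Mcm5, a helicase subunit, held 2 E2F matches that overlap each other, 0 CHR matches and 3 CCAAT matches. That of Cdk1, the mitotic kinase, held 1 E2F match, 2 CHR matches and 3 CCAAT matches. Ccnb2 (cyclin B2) and Mki67 each held 2 CHR and 3 CCAAT matches with 0 E2F matches, and Top2a (topoisomerase II alpha) held 4 CHR and 6 CCAAT matches with 0 E2F matches. Over the set, 8 of 36 regions held an E2F match (22.2%), against 2.32% of the 27025 regions of the same length for all genes. A CHR match was present in 16 of 36 (44.4%, against 19.4%) and a CCAAT box in 27 of 36 (75%, against 37.9%). A CHR match and a CCAAT box were both present in 16 of 36 (44.4%, against 7.70%). The E2F matches lay in 7 of the 18 regions of licensing, synthesis and G1 or S genes and in 1 of the 18 of mitotic genes and markers. For CHR matches the order was the other way, with 3 of 18 and 13 of 18. These matches describe letters in a window and were not tested as binding sites.

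Levels are given as the log2 processed signal minus the 75th percentile of the same array, so that 0 is the level of that percentile. They can be compared between arrays for 1 gene and not between genes. In a comparison of diets a gene counts as measured when 1 or both of the 2 arrays had its probe well above background. It is said to have risen or fallen when its log2 difference was at least 1, that is 2-fold. Where the dimmer array was not well above background the difference was taken against the signal of the probe there, or against the array's lowest reliable signal if that was higher, and is written as "at least". Replicate spots within an array gave a technical standard deviation of 0.0915 for a log2 difference, which leaves out the variation between mice. In bulk tissue, fewer cells of a type and less RNA per cell cannot be told apart.

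Between 50.7% and 67.9% of spots per array were well above background, and 0 spots were saturated. The tissue labels were checked on defining genes. Albumin (Alb) lay between 10.26 and 10.38 on the liver arrays, adiponectin (Adipoq) between 7.48 and 8.12 on the 8 fat arrays and Ucp1 between 9.79 and 10.16 on the brown fat arrays. The ileal bile acid binding protein Fabp6 lay between 9.44 and 9.66 in ileum, and carbonic anhydrase 1 (Car1) between 4.48 and 5.52 in colon. The mesenteric fat arrays also held pancreatic enzyme and lymphocyte genes, whose amounts differed widely between diets and are given beside the results there.

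The cell cycle genes were highest in the gut, intermediate in mesenteric fat and lowest in brown fat and liver. Each gene was expressed as its log2 deviation from its own mean over the 20 arrays, and the median deviation over the 49 genes was taken per array. In CD, HFD, HFD+PP and HFD+Ex order, this median was 1.52, 1.16, 1.53 and 1.33 in ileum and 0.79, 0.69, 1.45 and 0.70 in colon. It was 0.45, −0.06, −0.02 and −0.06 in mesenteric fat, −1.56, −0.63, −1.10 and −1.23 in brown fat, and −1.73, −1.23, −1.60 and −1.66 in liver. The 8 gut arrays did not overlap the 12 others in this median. By tissue mean, 37 genes were highest in ileum and 6 in colon, while 31 were lowest in liver and 13 in brown fat. For 37 genes both gut tissues lay above the other 3. These counts were not taken over all genes, so no share of all genes stands beside them.

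**Figure D1:**
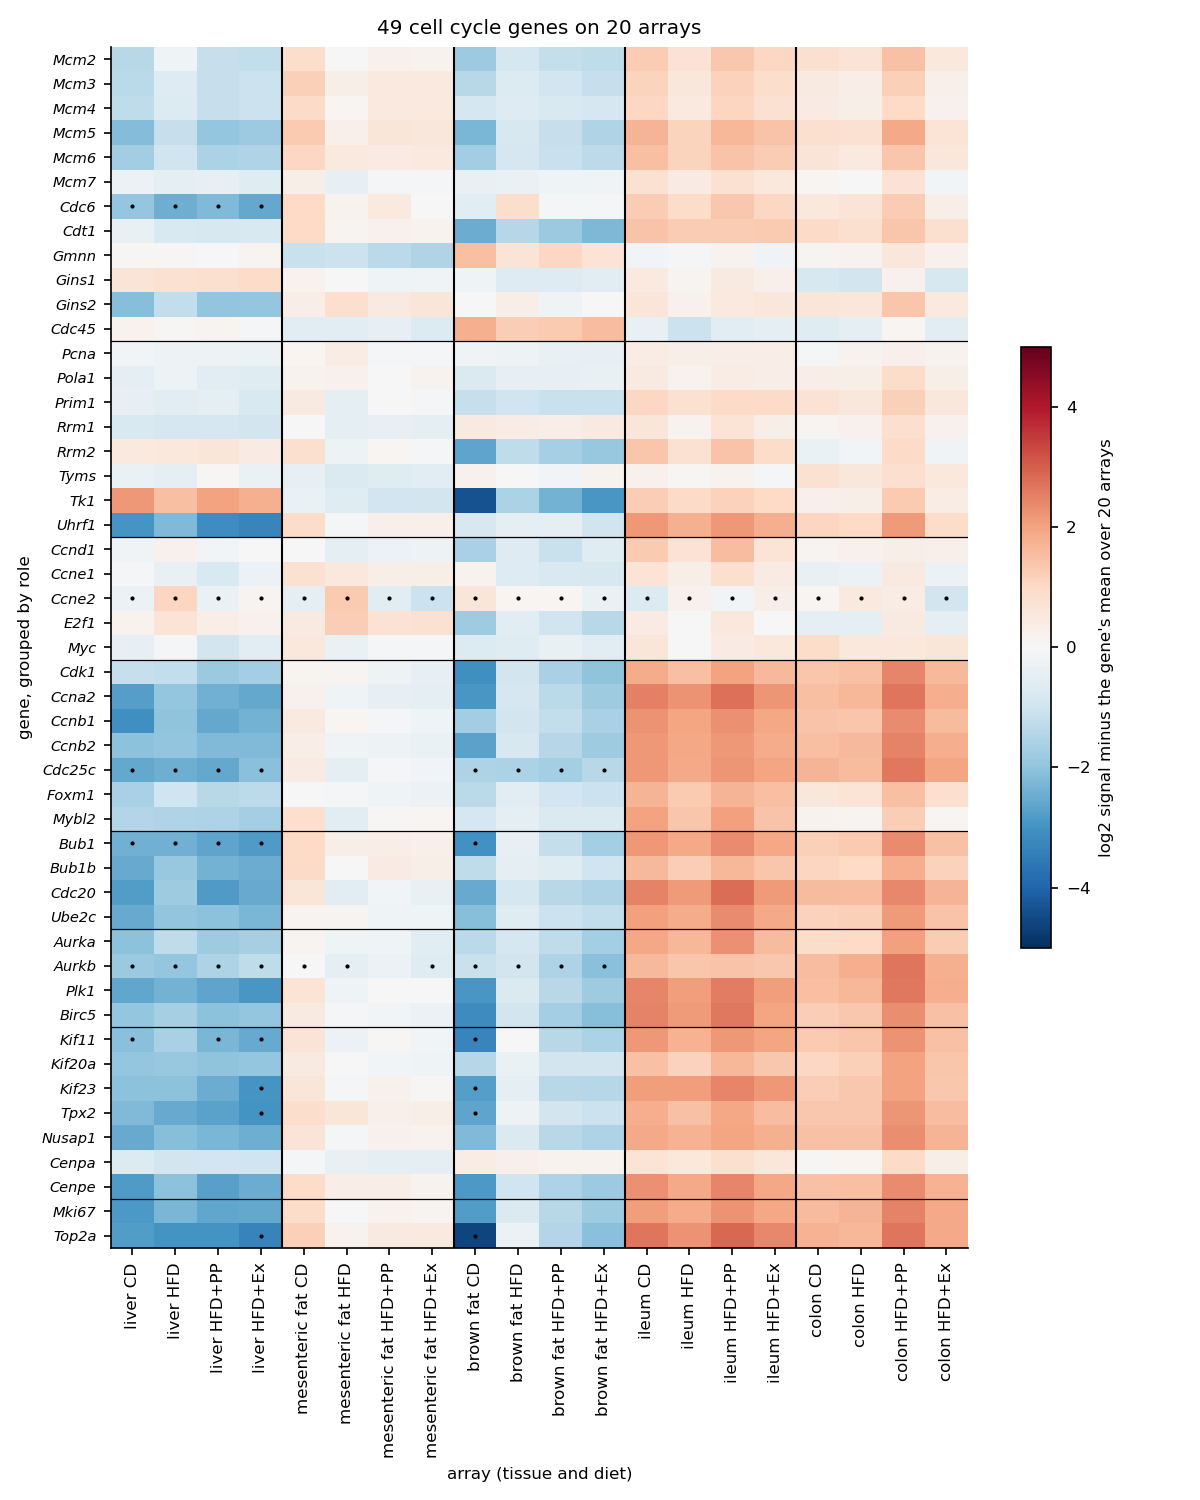
Log2 signal of each of the 49 genes minus that gene's mean over 20 arrays (colour, from −5 to 5), with genes in rows grouped by role and the 20 arrays in columns by tissue and diet. Black dots mark values not well above background. The ileum and colon columns are red for most genes and the liver and brown fat columns blue, with Tk1 in liver and Gmnn and Cdc45 in brown fat among the exceptions.

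**Figure D2:**
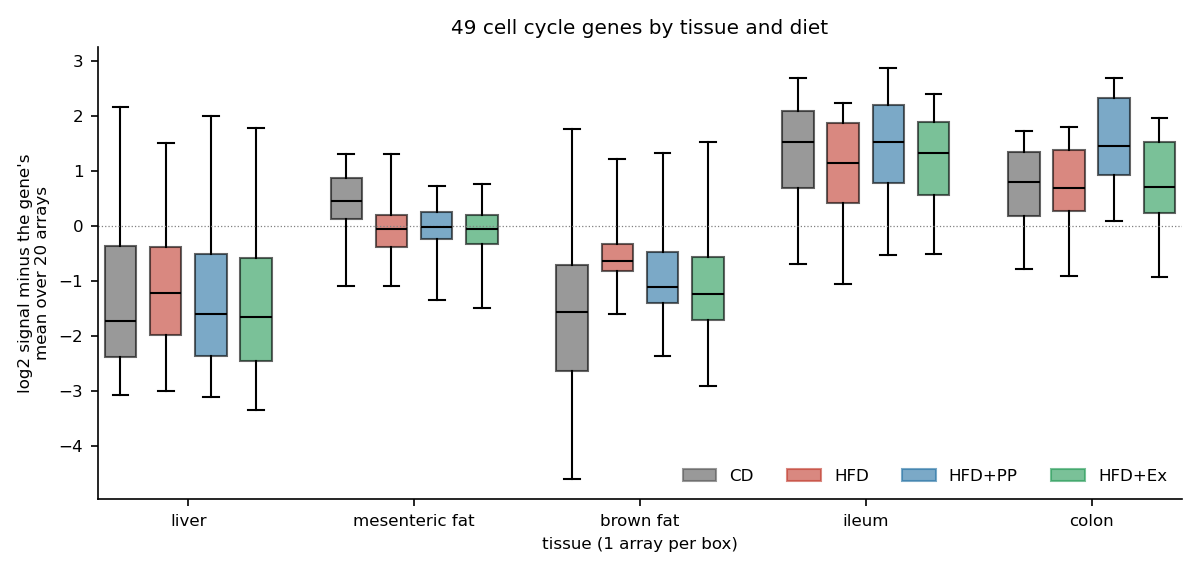
Log2 deviation from each gene's mean over 20 arrays (vertical axis) for the 49 genes, 1 box per array, by tissue and diet. Boxes run from the lower to the upper quartile with the median as a line, and whiskers reach the lowest and highest gene. The HFD box is the highest in brown fat and in liver, the CD box in mesenteric fat and the HFD+PP box in colon.

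The tissues were compared with limma over 17389 genes, with the 4 diets of a tissue as its replicates and the diet, which marks the same pool of mice, as a block. Adjusted p-values are Benjamini-Hochberg values over all genes tested, with a threshold of 0.05, and 48 of the 49 genes could be tested. In ileum against liver, 42 of 48 were higher and 2 lower, with a median log2 difference of 3.16, where 35.9% of all genes tested were higher and 43.0% lower. In colon against liver, 40 were higher and 4 lower with a median of 2.69, beside 36.6% and 41.3% of all genes. Top2a, which untangles DNA, differed most in both, by 5.59 (SE 0.59, adjusted p = 2.7e-07) and 5.02 (SE 0.59, adjusted p = 9.7e-07). It was not well above background on 1 of the 4 liver arrays. Next in ileum against liver were Plk1, a mitotic kinase, at 4.93 (SE 0.34, adjusted p = 1.7e-09) and Uhrf1, which maintains DNA methylation through S phase, at 4.87 (SE 0.26, adjusted p = 7.8e-11). In colon against liver they were Plk1 at 4.52 (SE 0.34, adjusted p = 5.2e-09) and Mki67 at 4.49 (SE 0.32, adjusted p = 2.2e-09). Bub1, a kinetochore checkpoint kinase, was not well above background on any liver array and was at least 16.2-fold higher in ileum and at least 11.3-fold higher in colon. Liver lay on slide 1, ileum on slide 3 and colon on slide 4, so in contrasts among these tissues slide and tissue cannot be told apart. Scaling each array to the probes well above background on all arrays moved the median of all genes in ileum against liver from −0.14 to 0.23 and their split to 46.2% higher and 32.6% lower, with 43 of the 48 higher and 0 lower. The split in colon against liver moved to 46.6% and 31.4%, with 43 higher and 2 lower. With normexp background correction the median over the set was 1.89 in ileum against liver (41 higher and 2 lower, all genes −0.26) and 1.52 in colon against liver (39 higher and 4 lower, all genes −0.29).

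A few genes of the set ran the other way between gut and liver. Thymidine kinase 1 (Tk1), of the thymidine salvage pathway, measured 3.61, 2.95, 3.45 and 3.22 in liver in the order CD, HFD, HFD+PP and HFD+Ex, and 1.70, 1.74, 2.75 and 1.79 in colon. These ranges did not overlap, and Tk1 was lower in colon than in liver by 1.31 (log2 difference −1.31, SE 0.40, adjusted p = 0.0072), a call that was lost without the HFD+Ex arrays and with quantile normalization. In ileum against liver Tk1 differed by −0.78 (SE 0.40, adjusted p = 0.085), which missed the threshold. Gins1, a subunit of the replicative helicase complex, was −0.46 in ileum against liver (SE 0.19, adjusted p = 0.035) and −1.36 in colon against liver (SE 0.19, adjusted p = 6.2e-06). Cdc45, another subunit, was −0.69 in ileum against liver (SE 0.16, adjusted p = 0.00099), and E2f1 was −0.57 in colon against liver (SE 0.22, adjusted p = 0.025). The ileum call of Gins1 was lost without the HFD or the HFD+Ex arrays, and that of E2f1 without any one of the CD, HFD and HFD+Ex diets. The count of 4 lower genes in colon became 2 without the CD arrays and 1 without the HFD+Ex arrays, and the 2 in ileum became 1 without either the HFD or the HFD+Ex arrays. Scaling to probes well above background on all arrays ended the calls of Gins1 and Cdc45 in ileum and of E2f1 in colon. Tk1, Gins1, Cdc45 and E2f1, like Gmnn and Tyms below, each had 1 probe, so no second probe could be compared.

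Ileum and colon differed less from each other. Of 48 genes, 8 were higher in ileum and 1 lower, with a median difference of 0.39, beside 19.2% and 25.4% of all genes tested. Mybl2 (B-Myb), which drives mitotic genes, was higher by 1.31 (SE 0.25, adjusted p = 0.00047), the ribonucleotide reductase subunit Rrm2 by 1.04 (SE 0.29, adjusted p = 0.0081) and Gins1 by 0.90 (SE 0.19, adjusted p = 0.0011). Thymidylate synthase, Tyms, was the gene that was lower, at −0.58 (SE 0.13, adjusted p = 0.0019). Aurkb, the Aurora kinase of the chromosomal passenger complex, at −0.49 (SE 0.29, adjusted p = 0.18) and Gmnn at −0.33 (SE 0.15, adjusted p = 0.089) did not pass. The 8 became 4 without the CD arrays and 3 without the HFD+Ex arrays, 14 with normexp background correction and 18 with slide as a random block. The 1 lower gene became 2 without the CD arrays and 3 with slide as a random block. Ileum lay on slide 3 and colon on slide 4, so that block cannot separate slide from tissue. Its fitted correlation within slides was −0.137, and with it 26.2% of all genes tested were higher and 33.5% lower.

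Among the fats, 41 of 48 genes were higher in mesenteric than in brown fat and 5 lower (median 1.37, beside 32.2% and 41.8% of all genes tested). The largest differences were those of Top2a at 2.71 (SE 0.59, adjusted p = 0.00065), the licensing factor Cdt1 at 2.38 (SE 0.22, adjusted p = 8.6e-08) and the kinetochore motor Cenpe at 2.25 (SE 0.30, adjusted p = 6.5e-06). Top2a was well above background on only 3 of the 4 brown fat arrays, so the size and rank of its difference rest partly on an unmeasured level. The 41 include Aurkb, well above background on 1 mesenteric and 0 brown fat arrays. Its difference had no lower bound above 0. They also include Cdc25c, well above background on 0 brown fat arrays, which was at least 1.05-fold higher in mesenteric fat. Geminin, the inhibitor of Cdt1, was lower in mesenteric fat at −2.22 (SE 0.15, adjusted p = 2.4e-09), as were Cdc45 at −2.0 (SE 0.16, adjusted p = 1.9e-08) and Rrm1 at −0.75 (SE 0.13, adjusted p = 8.7e-05). On the HFD+PP arrays, where both fats lay on slide 2, the median difference was 1.15 and 43 of 49 genes were above 0. The 49 include Ccne2, which had no measured level, and this count was not taken over all genes. The mesenteric fat arrays carried lymphocyte and pancreas genes, and their part in these differences was not tested. With the other scaling the split of all genes was 44.9% and 28.9%, and 43 of the 48 were higher and 3 lower. With normexp background correction the median was 0.86, with 38 higher and 7 lower and a median of −0.28 over all genes.

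Against liver, mesenteric fat had 40 genes higher and 5 lower (median 1.68, beside 37.0% and 42.9% of all genes tested), led by Top2a at 3.62 (SE 0.59), Uhrf1 at 3.22 (SE 0.26) and the spindle assembly factor Tpx2 at 3.10 (SE 0.36). The lowest were Tk1 at −2.57 (SE 0.40), Gmnn at −1.32 (SE 0.15) and Gins1 at −0.83 (SE 0.19). Each of these 6 passed limma's test. The 40 include Aurkb, well above background on 1 mesenteric fat and 0 liver arrays, whose difference had no lower bound above 0. They also include Cdc25c, well above background on 0 liver arrays, which was at least 1.16-fold higher in mesenteric fat. Within slide 1 the median was 2.33 on CD, with 43 of 49 genes above 0, and 1.27 on HFD, with 41 of 49. These counts take in genes not well above background, among them Ccne2, and were not taken over all genes. The other scaling gave 46.6% and 32.9% of all genes, and 41 of the 48 higher and 3 lower. Normexp background correction gave a median of 0.96, with 38 higher and 7 lower and −0.27 over all genes. Brown fat against liver had 22 higher and 7 lower (median 0.50, beside 39.9% and 31.1% of all genes tested). All liver arrays lay on slide 1 and the brown fat arrays on slides 2 and 3, so slide and tissue cannot be told apart in this contrast. The 22 include the phosphatase Cdc25c, which was not well above background on any array of either tissue, so 21 were both higher and measured. Normexp background correction gave 16 higher at a median of 0.24. Without the CD arrays 25 were higher at a median of 0.77, without the HFD arrays 16 at 0.33, without the HFD+PP arrays 16 at 0.47 and without the HFD+Ex arrays 15 at 0.57. Tk1 was lower in brown fat by 4.68 (log2 difference −4.68, SE 0.40, adjusted p = 2.7e-08), Rrm2 had a difference of −2.40 (SE 0.29, adjusted p = 1.6e-06) and E2f1 one of −1.52 (SE 0.22, adjusted p = 1.0e-05). Cdc6, the licensing ATPase, was at least 3.37-fold higher in brown fat, since it was not well above background on any liver array. Uhrf1 was higher by 2.20 (SE 0.26, adjusted p = 1.5e-06) and the helicase subunit Gins2 by 1.85 (SE 0.21, adjusted p = 8.3e-07).

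Mitotic genes above all were higher on the HFD array of brown fat than on its CD array. Of 46 measured genes 22 rose and 0 fell from CD to HFD, where 6.27% of all genes measured rose and 3.08% fell. The median difference was 0.96 over the set and −0.13 over all genes. Bub1, Kif11, Kif23, Tpx2 and Top2a were well above background on the HFD array and not on the CD array. Over the 41 genes well above background on both arrays, 17 rose and the median was 0.85. With normexp background correction 8 rose in place of 22, at a median of 0.43. The CD, HFD and HFD+PP arrays of brown fat shared slide 2. Of the 20 arrays, the brown fat CD array had the lowest share of spots well above background, 50.7% beside 56.5% on the HFD array, and the lowest 75th percentile of log2 signal, 8.01 beside 8.36. Their part in these differences was not tested.

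By role, both proliferation markers, 6 of 7 spindle and kinetochore genes, 3 of 4 checkpoint and anaphase genes, 2 of 3 measured mitotic kinase and passenger genes and 3 of 6 measured genes of mitotic entry rose. Among earlier steps 3 of 12 licensing and helicase genes, 2 of 8 synthesis genes and 1 of 4 measured G1 and S regulators did. The role medians ran from 0.23 for DNA and nucleotide synthesis to 2.53 for both proliferation markers. The highest median of a role with over 2 genes was 2.18, for the mitotic kinases and passenger proteins.

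Top2a measured −6.00 on CD, which was not well above background, −1.69 on HFD, −2.89 on HFD+PP and −3.50 on HFD+Ex. The HFD array was the highest and the CD array the lowest, and from CD to HFD Top2a rose at least 8.02-fold. Mki67 measured −1.16, 0.90, 0.23 and −0.14 in the same order of diets, a rise of 2.06 from CD to HFD, and its second probe gave 2.15. Tk1 measured −2.92, −0.15, −0.93 and −1.47, a rise of 2.77. The 3 genes shared 1 order of arrays, with HFD highest, then HFD+PP, then HFD+Ex, and CD lowest.

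Birc5 (survivin), of the chromosomal passenger complex, measured −0.94, 1.30, 0.50 and 0.07 in CD, HFD, HFD+PP and HFD+Ex order and rose by 2.24. Plk1 measured −2.15, 0.03, −0.64 and −1.04 and rose by 2.18. Cdk1 measured −4.08, −1.94, −2.66 and −3.02 and rose by 2.15. A second probe of Cdk1 gave a bound of 2.13 and the remaining probe was not well above background on either array. Ccna2 (cyclin A2), the partner of Cdk1 and Cdk2, rose by 2.07 from −2.81. The spindle genes Tpx2 (at least 5.24-fold) and Kif23 (at least 4.94-fold) rose from a CD array on which they were not well above background. A second, dimmer probe of Tpx2 gave a bound of 0.52, and the second probe of Cdc6, whose brightest probe rose by 1.47, gave a bound of 0.00.

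The other genes that rose lay between 1.08 (Cdt1) and 1.89 (Ccnb2) on the log2 scale. Several genes of G1 and S phase were flat or pointed down on HFD, as did the centromeric histone Cenpa at −0.12. Pcna, the sliding clamp of DNA polymerases, measured 3.67, 3.62, 3.50 and 3.45 across the diets, and Myc −1.14, −1.04, −0.82 and −1.0. The lowest differences from CD to HFD were −0.83 for Gmnn, −0.81 for Ccne1 (cyclin E1) and −0.55 for Cdc45, none of them 2-fold. Ccnb1 (cyclin B1) measured −2.29 on CD and −1.48 on HFD, a difference of 0.81, and Ccnd1 (cyclin D1), which starts G1 progression, 1.03 and 2.01, a difference of 0.98. Both were below the 2-fold limit.

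**Figure D3:**
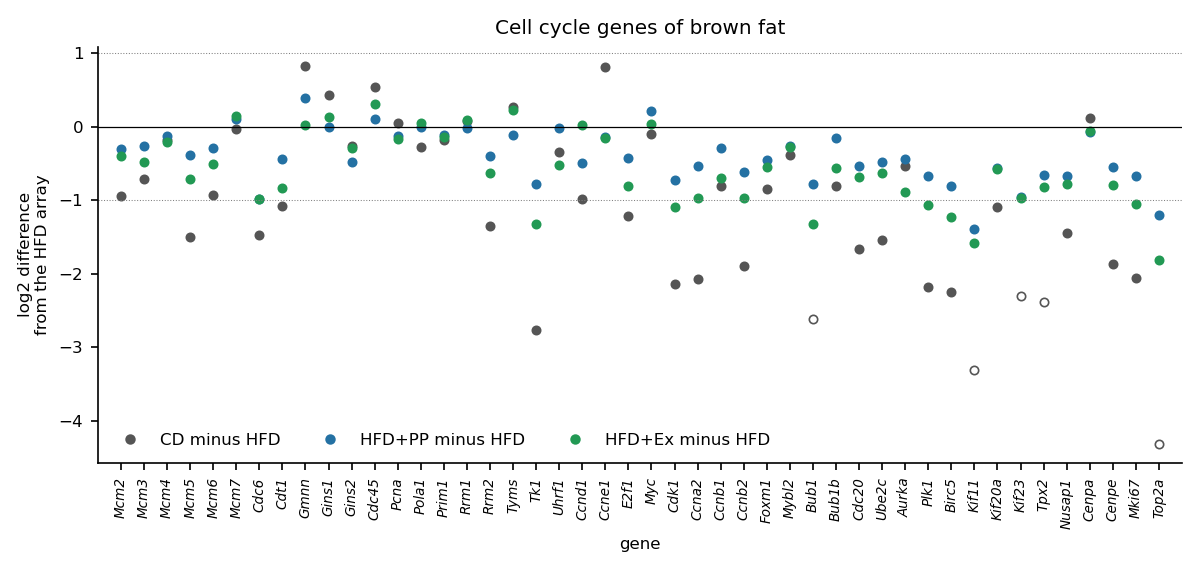
Log2 difference from the HFD array of brown fat (vertical axis) for each of the 46 measured genes, on CD (grey), HFD+PP (blue) and HFD+Ex (green). Open circles mark genes not well above background on 1 of the 2 arrays, drawn at their own signal and so without the floor used in the text, and dotted lines mark 2-fold. From Cdk1 to Top2a most grey circles lie below −1, with the blue and green circles closer to 0.

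Lists of other cell cycle genes were set beside the 49. Of 54 measured G2 and mitosis genes 27 rose and 1 fell from CD to HFD (median 1.0). Among them the spindle pole protein Aspm rose by at least 2.84 on the log2 scale, Shcbp1 by at least 2.15 and the midzone protein Prc1 by 2.12. Kif2c, a microtubule depolymerase, was the gene that fell, at −3.47 as a bound, to a level not well above background. Of 44 other replication and S phase genes 5 rose and 1 fell (median 0.04), namely Exo1 by at least 1.59, Rad51ap1 by 1.55 and Fanci by at least 1.19 among those that rose, and Orc1 at −1.95 as a bound. The G1 cyclin, CDK and E2F list had 2 rising and 1 falling of 20, with E2f8 at 1.87 as a bound, E2f7 at 1.05 and Mycl at −1.67. Of 14 inhibitors and pocket proteins Rbl1 rose, by 1.03.

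Macrophage markers were higher on the same array. From CD to HFD, 12 of 15 macrophage markers rose (median 1.98), and their summed signal, in multiples of the array's 75th percentile, was 30.8, 99.0, 68.4 and 50.8 on CD, HFD, HFD+PP and HFD+Ex. This is the order of diets that Top2a, Mki67 and Tk1 had. All 15 were well above background on the HFD array and 13 on the CD array. Hepatocyte markers also rose, 6 of 10 with 1 lower (median 2.20), at a summed signal of 28.9 and 32.4 on CD and HFD against 6798 to 7234 in liver. B cell markers had 1 of 10 higher and T cell markers 2 of 11. The part of these cells in the cell cycle difference was not tested.

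With porphyran, 2 of 46 measured genes fell against HFD in brown fat and 0 rose, beside 2.18% and 1.51% of all genes measured. The kinesin Kif11, which pushes spindle poles apart, fell by 1.39, from −3.09 to −4.48, and Top2a fell by 1.20. The median was −0.43, against 0.03 over all genes, and 5 of the 46 were above 0, a count not set against all genes. With nori extract 8 of 46 fell and 0 rose, beside 3.31% and 0.846% of all genes measured, and the median was −0.60. Top2a fell by 1.81, Kif11 by 1.58, Tk1 by 1.32, Bub1 by 1.32 and Birc5 by 1.23, followed by Cdk1, Plk1 and Mki67 with falls between 1.05 and 1.09. With normexp correction 2 fell in place of 8. The brown fat HFD+Ex array lay on slide 3 and the HFD array on slide 2, so slide and diet cannot be told apart there. These comparisons share the HFD array with each other and with the comparison against CD.

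Extract and porphyran arrays of brown fat differed by less than 2-fold in all 46 measured genes, where 1.24% of all genes rose and 1.53% fell. The median was −0.17, with Top2a lowest at −0.61 and Ccnd1 highest at 0.51. In the other lists Aspm fell by 1.32 with porphyran and by 2.35 with extract against HFD, and with porphyran Nuf2, a kinetochore protein, fell by 1.04, Kif20b by 1.08 and Mastl by at least 1.09. With extract Ska1 fell by at least 1.54, Iqgap3 by 1.52 and Espl1 (separase) by 1.28. Macrophage markers had 1 of 15 lower with porphyran (median −0.49) and 8 of 15 lower with extract (median −1.14).

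In colon the porphyran array stood above the other 3 across nearly the whole set. Of 48 measured genes 12 rose and 0 fell against HFD, where 1.71% of all genes measured rose and 1.11% fell. The median was 0.85 (−0.03 over all genes), and 48 of 48 genes were above 0, beside 44.3% of all genes. The porphyran array held the highest of the 4 levels for 47 of 48 genes, against 31.8% of all genes. Myc, whose highest level lay on the CD array, was the other gene. With normexp correction 6 rose in place of 12. All 4 colon arrays shared slide 4.

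Uhrf1 led the set and measured 1.36, 1.27, 2.42 and 1.20 on CD, HFD, HFD+PP and HFD+Ex, a rise of 1.15, and its second probe gave 1.06. Mcm5 measured 1.13, 1.1, 2.22 and 1.04 and rose by 1.13. Gins1 measured −1.01, −1.13, −0.02 and −1.04 and rose by 1.11. In each of the 3 genes the arrays without porphyran lay close together while the porphyran array stood apart.

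Rrm2 measured 0.60, 0.77, 1.88 and 0.73 and rose by 1.11, and Mybl2 measured −0.09, −0.15, 0.95 and −0.18 and rose by 1.1. Top2a measured 0.33, 0.26, 1.29 and 0.48, a rise of 1.03. The other genes that rose were Bub1, Cdc25c, Aurka, Ccna2, Tk1 and Plk1, each by 1.01 to 1.06, so that genes of S phase and of mitosis were both among the 12. Mki67 differed by 0.78, Cdk1 by 0.97 and Ccnb1 by 0.99, all below the 2-fold limit. Ccnd1 (0.11), Pcna (0.05) and Myc (0.03) differed least.

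Role medians for porphyran against HFD in colon ran from 0.44 for the 4 measured G1 and S regulators to 1.0 for the 4 mitotic kinases and passenger genes. Outside the set, 10 of 68 G2 and mitosis genes rose and 0 fell (median 0.85), with the checkpoint kinase Ttk at 1.38, the condensin subunit Ncapg at 1.22, Gtse1 at 1.16 and Spag5 at 1.14. Of 47 replication genes 7 rose and 0 fell (median 0.63), with Mcm10 at 1.24, Clspn at 1.15, Rad51ap1 at 1.12 and Exo1 at 1.11. E2f2 rose by 1.30 and E2f8 by 1.29 among 21 G1 genes, whose median was 0.14. Among the 14 inhibitors and pocket proteins 0 passed 2-fold (median −0.05).

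Cell type markers were compared on the same colon arrays. Intestinal epithelium markers had 2 of 15 higher (median 0.06) and crypt stem cell markers 1 of 11 (median −0.04). The summed signal of the crypt markers was 65.3, 57.4, 69.0 and 59.7 over the 4 diets and that of the smooth muscle markers 885.6, 898.3, 680.8 and 1037, the lowest value lying on the porphyran array. The 10 smooth muscle markers were all below 0 against HFD, with a median of −0.45 and 0 past 2-fold. B and T cell markers had medians of 0.21 and 0.12, with 0 of 14 and 0 of 15 past 2-fold, and 5 of 17 exocrine pancreas markers rose (median 0.53). The summed signal of the pancreas markers went the other way, at 506.2, 562.2, 368.6 and 543.7 over the 4 diets, lowest on the porphyran array. Hepatocyte markers had a summed signal of 51.1, 17.7, 15.5 and 18.7 over the 4 diets, highest on CD. Alb measured 2.56 on CD and −1.98 on HFD. The part of the share of tissue layers, and of the other markers, in the cell cycle difference was not tested.

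Neither HFD against CD nor extract against HFD showed such a shift in colon. From CD to HFD 0 of 48 genes passed 2-fold, beside 0.45% of all genes that rose and 1.7% that fell, and the median was 0.03. Pcna differed most upwards at 0.28 and Myc most downwards at −0.41. With extract against HFD 0 of 48 passed, beside 1.12% and 0.402% of all genes, with a median of 0.05, Cdc25c highest at 0.37 and Cdc6 lowest at −0.35. Extract against porphyran had 5 of 48 lower and 0 higher, beside 1.39% and 1.74% of all genes, at a median of −0.76. Those 5 were Uhrf1 at −1.21, Mcm5 at −1.19, Rrm2 at −1.15, Mybl2 at −1.13 and Gins1 at −1.02, and the comparison shares the porphyran array with that against HFD. In the other lists Clspn fell by 1.32, Exo1 by 1.26, Orc1 by 1.16, Mcm10 by 1.15, E2f2 by 1.58, E2f8 by 1.18, Ncapg by 1.06 and Depdc1a by 1.04.

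In ileum 0 genes passed 2-fold in any of the 4 comparisons of diets. Within HFD against CD, and within porphyran against HFD, nearly all pointed the same way. From CD to HFD the median was −0.35 (−0.01 over all genes), and 47 of 48 genes were below 0, a count not set against all genes. Of all genes 1.57% rose and 2.33% fell. The largest difference was that of Cdc45 at −0.71, the smallest in size that of Kif23 at −0.01, and Gmnn at 0.02 was the gene above 0. With porphyran against HFD the median was 0.42 and 48 of 48 were above 0, beside 48.3% of all genes, while 1.97% of all genes rose and 0.939% fell. Ccnd1 differed most at 0.79 and Pcna least at 0.02. The HFD array held the lowest of the 4 levels for 38 of 48 genes, against 27.7% of all genes, and both comparisons share it. All 4 ileum arrays lay on slide 3.

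Levels in ileum show how narrow these steps were. Mki67 measured 3.70, 3.49, 3.88 and 3.56 on CD, HFD, HFD+PP and HFD+Ex. Top2a measured 1.29, 0.84, 1.48 and 1.0, and Cdk1 0.83, 0.48, 0.98 and 0.59. In each the porphyran array was the highest and the HFD array the lowest. Ccnd1 measured 3.93, 3.38, 4.17 and 3.34, Ccnb1 1.68, 1.41, 1.71 and 1.38, and Myc 0.16, −0.41, −0.02 and 0.10. For Ccnd1 and Ccnb1 the extract array was the lowest, and Pcna stayed between 4.17 and 4.24 on the 4 arrays.

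Extract against HFD in ileum had a median of 0.07 with 38 of 48 above 0, beside 1.16% of all genes that rose and 0.695% that fell. The count of 38 was not set against the share of all genes above 0. Cdc45 was highest at 0.56 and Birc5 lowest at −0.16. Extract against porphyran had a median of −0.30, beside 1.31% and 2.0% of all genes, with Ccnd1 lowest at −0.83 and Myc highest at 0.11. Outside the set, the checkpoint kinase Chek1 fell by 2.64 from CD to HFD, the helicase Hells rose by 1.23 with extract against HFD, and Cep55 fell by 1.15 with extract against porphyran. Crypt stem cell markers had medians of −0.18 for HFD against CD and 0.08 for porphyran against HFD, and smooth muscle markers −0.49 and 0.62, with 0 of 11 and 0 of 10 past 2-fold. Adipocyte markers had 5 of 10 lower on HFD and 6 of 10 higher with porphyran. Hepatocyte markers differed too. Alb measured 1.14 on CD and −5.91 on HFD, where it was not well above background. The mean log2 level of the 10 hepatocyte markers was 1.40 on CD and −0.62 on HFD. Their summed signal went the other way, at 77.9 and 120.1. The part of these tissue components was not tested.

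**Figure D4:**
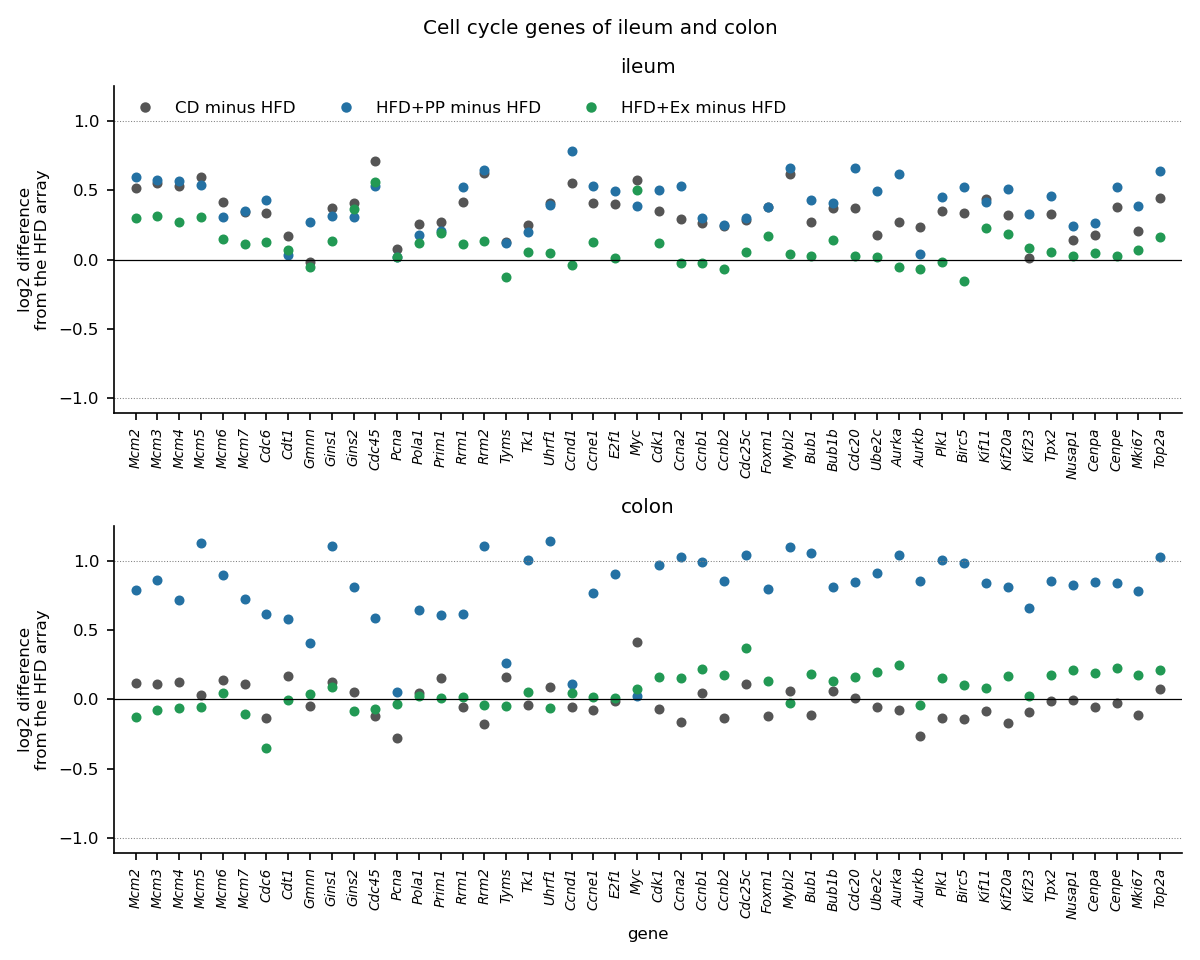
Log2 difference from the HFD array (vertical axis) for each of the 48 measured genes in ileum (upper) and colon (lower), on CD (grey), HFD+PP (blue) and HFD+Ex (green), with dotted lines at 2-fold. In colon the blue points lie between 0.03 and 1.15 and all others between −0.35 and 0.41. In ileum both grey and blue points lie mostly above 0.

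In mesenteric fat the set was highest on CD. From CD to HFD 6 of 47 measured genes fell and 0 rose, where 8.46% of all genes measured fell and 8.88% rose. The median was −0.53 over the set and 0.12 over all genes, and 5 of 47 were above 0, a count not set against all genes. The CD array held the highest of the 4 levels for 42 of 48 genes, against 30.9% of all genes. The count that fell was 1 with normexp correction and 10 with either the other scaling or the authors' values. Both arrays lay on slide 1.

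Mybl2 measured 0.57, −0.82, −0.24 and −0.18 on CD, HFD, HFD+PP and HFD+Ex and fell by 1.39, and its second probe gave −0.76. Cdc20, which activates the anaphase-promoting complex, measured 1.56, 0.46, 0.84 and 0.59 and fell by 1.1. Rrm2 measured 1.71, 0.67, 1.03 and 0.83 and fell by 1.05. In all 3 the CD array was above the 3 high fat arrays, and the HFD array was the lowest.

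Mcm5 fell by 1.04 from 1.64, Uhrf1 by 1.04 from 1.21 and Top2a by 1.01 from −0.19. Mki67 differed by −0.92 and Myc by −0.88, below the 2-fold limit, and Ccnd1 by −0.43 and Ccnb1 by −0.33. Cdk1 measured −0.88 on both the CD and the HFD array, while its other probes gave 0.22 and, as a bound, −1.59. Pcna was 0.28 higher on HFD. E2f1, the transcription factor of S phase genes, was the highest of the set at 0.78. All 12 licensing genes except Gins2 and Gmnn were below 0.

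Other replication genes had 9 of 45 lower and 0 higher (median −0.52). They were led by the chromatin helicase Hells at −2.19, Ticrr at −1.56, Clspn at −1.41 as a bound and Fanci at −1.40. Other G2 and mitosis genes had 9 of 65 lower and 2 higher (median −0.49), with Knl1 at −1.51, Ncapg2 at −1.49 and Gtse1 at 1.21. Cdkn1a (p21), an inhibitor of cyclin-dependent kinases, rose by 1.83, and Cdkn2a fell by 1.24. E2f2 fell by 1.69 and Mycl by 1.56.

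Lymphocyte and pancreas genes fell on the same HFD array. B cell markers had 13 of 14 lower (median −3.45), T cell markers 14 of 15 (median −3.37) and exocrine pancreas markers 18 of 18 (median −5.73). The summed signal in CD, HFD, HFD+PP and HFD+Ex order was 143.4, 18.4, 82.5 and 78.7 for B cells, 175.3, 22.4, 79.5 and 74.1 for T cells and 1661, 42.5, 2598 and 929.2 for pancreas. Germinal centre B cell markers had 4 of 10 lower and 1 higher (median −0.01). Macrophage markers rose, 11 of 15 with a summed signal of 126.4 and 330.4, and intestinal epithelium markers rose, 13 of 14 with 7.95 and 43.3. The part of these cells in the cell cycle difference was not tested.

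The supplements left the set in mesenteric fat near its HFD level. Porphyran against HFD had 0 of 48 past 2-fold (median 0.09, beside 4.69% of all genes that rose and 4.22% that fell), and extract against HFD 0 of 47 (median −0.01, beside 3.64% and 3.78%). Mybl2 was the highest in both, at 0.59 and 0.64, E2f1 the lowest with porphyran at −0.50 and Cdk1 the lowest with extract at −0.55. On the same arrays 12 of 14 B cell markers rose in each comparison, with medians of 2.62 and 2.57, as did 18 of 18 exocrine pancreas markers. The HFD array lay on slide 1 and both supplement arrays on slide 2, so slide and diet cannot be told apart. Extract against porphyran, within slide 2, had 0 of 48 past 2-fold and a median of −0.05, beside 0.885% of all genes that rose and 2.48% that fell. Cdc6 was lowest at −0.47 and Pola1, the catalytic subunit of DNA polymerase alpha, highest at 0.16. Outside the set Hells rose by 1.27 and 1.28 against HFD with porphyran and with extract, and Mycl by 1.92 and 1.95, while Cenpm fell by 1.21 and 1.02, Gtse1 by 1.13 and 1.01 and Cdk6 by 1.20 and 1.07.

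**Figure D5:**
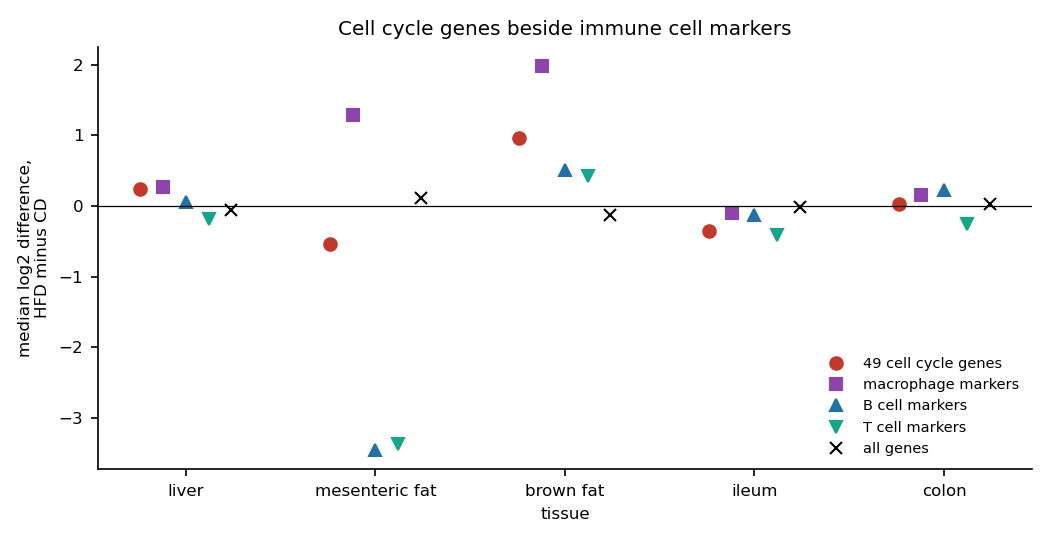
Median log2 difference of HFD minus CD (vertical axis) in each of the 5 tissues for the 49 cell cycle genes, for macrophage, B cell and T cell markers and for all genes measured, from 1 array per diet. In brown fat the cell cycle genes (0.96) and the macrophage markers (1.98) are both above 0. In mesenteric fat the cell cycle genes (−0.53) are below 0 beside B cell (−3.45) and T cell (−3.37) markers, while macrophage markers (1.30) are above.

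In liver the HFD array was the highest for 27 of 44 measured genes, against 24.4% of all genes. From CD to HFD 4 of 44 rose and 0 fell, where 3.45% of all genes measured rose and 1.35% fell, and the median was 0.24 (−0.05 over all genes). Mcm2 measured −1.82, −0.65, −1.59 and −1.67 on CD, HFD, HFD+PP and HFD+Ex and rose by 1.17. Mcm5 measured −1.82, −0.80, −1.59 and −1.49 and rose by 1.03. The HFD array was the highest for both of these helicase subunits and the other 3 arrays lay close together.

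Ccnb1 measured −3.63, −2.59, −3.14 and −2.93 and rose by 1.05, while its other probes were not well above background. Cdc20 measured −1.84, −0.81, −1.85 and −1.55 and rose by 1.03. Mki67 differed by 0.61, Ccnd1 by 0.37 and Myc by 0.32, and Top2a by −0.23, Pcna by −0.10 and Cdk1 by −0.08. Tk1, at its highest in this tissue, differed by −0.67. Licensing genes had a median of 0.58 and synthesis genes one of −0.09.

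With porphyran against HFD, Cdc20 fell by 1.05, 1 of 44 measured genes, beside 1.54% of all genes that fell and 0.579% that rose. With extract 2 of 44 fell, beside 1.63% and 1.43%, namely Mcm2 by 1.02 and Uhrf1 by 1.09. The second probe of Uhrf1 was not well above background, and the mean over both probes turned its difference to 0.10. The medians were −0.34 and −0.32, and both comparisons share the HFD array with that against CD. Extract and porphyran had 0 of 43 past 2-fold (median −0.03, beside 1.35% of all genes that rose and 0.509% that fell), with Ccne1 highest at 0.46 and Tyms lowest at −0.38 among genes measured on both arrays.

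Outside the set, Dtl, which targets Cdt1 for destruction, rose by 1.42 in liver on HFD and fell by 1.25 with porphyran and by 1.08 with extract. Cenpm rose by at least 2.63, Pbk by at least 1.29, Exo1 by at least 1.25 and Ckap2 by at least 1.14. In all, 3 of 43 replication genes and 3 of 53 mitosis genes rose on HFD. With porphyran 5 of 54 mitosis genes fell, among them Pbk by at least 1.34 and Gtse1 by 1.13, and with extract 3 of 51, among them Gtse1 by at least 1.22. Cdkn1a fell by 1.41 with extract against HFD and by 1.26 against porphyran. Markers of other cells also rose on the HFD array, with 6 of 8 adipocyte markers (median 1.43), 5 of 7 mesothelium markers (1.30), 4 of 9 smooth muscle markers (0.92) and 4 of 15 macrophage markers with 1 lower (0.28). The summed adipocyte signal was 34.6, 84.1, 50.7 and 52.5 over the 4 diets, and the part of these cells was not tested. All 4 liver arrays shared slide 1.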

How the data were processed

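RNA from 5 tissues, pooled over 7 mice per diet, was labelled with Cy3 and hybridised to 20 one-colour arrays. The deposited scanner files hold the processed signal intensity and the background flag of each spot from Agilent Feature Extraction 11.5.1.1, protocol GE1_1105_Oct12, per the file headers. The authors' value table holds the same intensity times 1 factor per array (largest departure 7.19e-10 on the log2 scale).

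Control spots (3671 per array) and spots with outlier flags (117 to 206) were left out, and spots of 1 probe were averaged. Of 55681 probes, 28026 had a symbol. The log2 intensity minus the array's 75th percentile was used, with the brightest probe for a gene. Differences between diets were called at 2-fold and carry no test. Tissues were compared with limma 3.58.1 in R 4.3.3 over 17389 genes well above background on at least 4 arrays, with diet as a block and Benjamini-Hochberg adjustment. The diet block rests on shared pools of mice. Deviations of arrays of 1 diet in different tissues had a median correlation of 0.039 over 40 pairs (−0.16 to 0.36). For different diets it was −0.016 over 120 pairs (−0.23 to 0.24), so the ranges overlapped. Alternatives were normexp background, probes well above background on all arrays or quantiles for scaling, the probe mean, no filter, slide as a random block, no block and each diet left out. For normexp the median spot signal stood in for the mean signal, which was not used here.

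The genes named are those that changed (the 5 largest where more than 5 did), the extremes where none did, 7 genes named throughout (Mki67, Top2a, Pcna, Cdk1, Ccnb1, Ccnd1, Myc), up to 4 per other list and the 3 highest and 3 lowest per tissue contrast. Others named were chosen after their values were seen. Some genes of the other lists that this rule picks are not reported here. The members, lists and tests were chosen with earlier results of these data known. The number of arrays limits the precision.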

Additional observations from a re-analysis of the deposited data

Results flagged for a closer look

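The median deviation of the cell cycle genes lay far from the other 3 arrays of its tissue, relative to the range of the 4, for mesenteric fat on CD (0.45) and for colon on HFD+PP (1.45), by Dixon's criterion. Chance flags about 1 in 20 groups of this size.

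Some genes changed in opposite directions under the same contrast, and these differences between tissues were not tested. From CD to HFD, Cdc20 differed by 1.03 in liver, −1.10 in mesenteric fat and 1.67 in brown fat, and Mcm5 by 1.03, −1.04 and 1.49. Rrm2 differed by −1.05 in mesenteric and 1.36 in brown fat, and Top2a by −1.01 and, as a bound, 3.0. From HFD to HFD+PP, Top2a differed by −1.20 in brown fat and 1.03 in colon.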

How the results depend on the processing

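With 1 pooled array per diet and tissue, no difference between diets has a replicate, and the technical spread leaves out the variation between mice. Signals near background limit Ccne2, Cdc25c, Aurkb, Bub1 and Kif11 most. Of the medians by diet, 126 moved by less than the technical spread or kept their value and 14 moved. That spread comes from replicate spots of single probes well above background and does not measure the spread of a median over the set. With normexp background the median was 0.14 for HFD against CD in liver, −0.17 and −0.15 for HFD+PP and HFD+Ex against HFD there, 0.43 for HFD against CD in brown fat and −0.31 and −0.37 for HFD+PP and HFD+Ex against HFD there. With the authors' values it was 0.34 (liver), 1.24 (brown fat) and −0.44 (ileum) for HFD against CD, and −0.70 for HFD+Ex against HFD in brown fat. Scaling to probes well above background on all arrays gave −0.64 in mesenteric and 1.15 in brown fat for HFD against CD. The probe mean gave −0.24 for HFD+PP against HFD in liver and reversed Uhrf1 for HFD+Ex against HFD there, at 0.10. Genes well above background on both arrays gave 0.85 in brown fat for HFD against CD. Normexp lowered the counts to 8 rising for HFD against CD and 2 falling for HFD+Ex against HFD in brown fat, 6 rising for HFD+PP against HFD in colon and 1 falling for HFD against CD in mesenteric fat, where the other scaling and the authors' values each gave 10. For ileum against colon the count of 8 higher genes became 14 with normexp, 18 with slide as a random block and 3 to 10 with a diet left out. Without the diet block (no pairing of arrays by diet) it was 9. The slide block cannot separate slide from tissue in this contrast. Of the counts of higher genes by tissue 62 stayed within 1.5 times and 4 did not, and of the counts of lower genes 54 did and 12 did not. The lower counts were 2 with the other scaling and 1 to 4 with a diet left out for colon against liver (4 with all diets). They were 1 with quantile normalization, 0 with the other scaling and 1 to 3 with a diet left out for ileum against liver (2 with all diets). They were 3 with the other scaling for mesenteric fat against brown fat and against liver (5 each), and 2 with quantile normalization, 3 with slide as a random block and 1 to 2 with a diet left out for ileum against colon (1 with all diets). The causes were not tested.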
